A study of Homo sapiens with 2 samples.

Results

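The ends of the long arms of chromosomes 4 and 10 carry arrays of D4Z4, a macrosatellite whose repeat units each hold a copy of the DUX4 open reading frame, and the peaks of TRF2 at these ends are described here. Peaks were chosen by position: those whose summit lay in the last 315 kb of chromosome 4 (band q35.2, ending at 190214555) or the last 297 kb of chromosome 10 (band q26.3, ending at 133797422), on the human assembly hg38. They numbered 25 of the 24258 peaks in the authors' list (0.103%), 15 at 4q and 10 at 10q. The windows and the genes DUX4, FRG1, FRG2 and FRG2B were picked with these peaks already known, so the counts and fold values below are a description and no test was made of them. The cells were HCT116, a colon cancer cell line, fixed with 1% formaldehyde 72 h after plating. There was 1 library from chromatin immunoprecipitated with an antibody to TRF2 (5 μg for 100 μg of chromatin) and 1 input library made without antibody. Both came from the same line with no genotype or treatment contrast in the labels. The authors' list is named siCTRL for both libraries, so these cells may have been given control siRNA. That point was not settled. The D4Z4 copy number and the 4q alleles of these cells were not analysed here. There was no replicate, hence no test between samples, and the intervals given are exact Poisson 95% intervals that cover counting error only.

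TRF2 is a shelterin protein that binds double-stranded telomere repeats and protects chromosome ends. DUX4 is a double homeobox transcription factor that acts in the early embryo and is silenced in most adult tissues through the repressive chromatin of its array. Contraction of the 4q array, or loss of that chromatin, lets DUX4 be expressed in muscle in facioscapulohumeral muscular dystrophy. The 10q array is nearly identical in sequence and is not usually linked to the disease. On one class of 4q alleles the array is followed by beta satellite repeats before the telomere. FRG1, a nuclear protein tied to RNA processing, and FRG2, a gene switched on in differentiating muscle cells of patients, lie on the centromere side of the 4q array, and FRG2B is the 10q copy of FRG2.

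Each peak has a fold and a q-value, given as −log10 q. The fold is the authors' ratio, at the summit, of the immunoprecipitated read pileup to the background. The background is what the input library predicts locally, or a minimum shared across the list. The pileup and the background behind each fold were recovered from the fold and the p-value. The pileup is a count of reads, whereas the background is an expected value for the immunoprecipitated library and not a count of input reads. The number of input reads at a peak was not available. Across the whole list the median fold was 4.06, the median pileup 11 reads and the median background 1.69, with a lowest background of 1.05. At 29.5% of peaks the background was this shared minimum, so their fold follows from the pileup alone. What was done with reads that map equally well to many places was not given in the sources used here, so a read counted in one copy of a repeat may have come from another copy.

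The sequence upstream of the named genes was compared between the ends for FRG2 and FRG2B only. The 250 bases before the annotated start, from RefSeq on GRCh38.p14, are printed 5′ to 3′ for DUX4 (chr4:190173524-190173773, plus strand), whose start lies within the array, and for FRG2 (chr4:190027257-190027506, minus strand), FRG2B (chr10:133626796-133627045, minus strand) and the third coding copy, FRG2C on the short arm of chromosome 3 (chr3:75664078-75664327, plus strand). Capitals mark the bases of FRG2C that differ from FRG2.
DUX4: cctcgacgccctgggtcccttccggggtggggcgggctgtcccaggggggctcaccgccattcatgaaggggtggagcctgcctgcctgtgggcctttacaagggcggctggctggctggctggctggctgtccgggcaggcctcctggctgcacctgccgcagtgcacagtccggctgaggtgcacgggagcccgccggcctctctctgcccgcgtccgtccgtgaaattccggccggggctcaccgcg
FRG2: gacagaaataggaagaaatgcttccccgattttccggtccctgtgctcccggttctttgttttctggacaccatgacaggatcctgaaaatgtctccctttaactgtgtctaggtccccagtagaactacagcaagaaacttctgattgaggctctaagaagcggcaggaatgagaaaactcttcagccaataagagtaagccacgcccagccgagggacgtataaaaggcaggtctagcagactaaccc
FRG2B: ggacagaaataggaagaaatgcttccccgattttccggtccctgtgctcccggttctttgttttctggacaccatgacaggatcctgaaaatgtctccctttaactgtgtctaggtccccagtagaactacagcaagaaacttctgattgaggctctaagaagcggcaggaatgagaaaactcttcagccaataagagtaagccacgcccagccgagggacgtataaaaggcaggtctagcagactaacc
FRG2C: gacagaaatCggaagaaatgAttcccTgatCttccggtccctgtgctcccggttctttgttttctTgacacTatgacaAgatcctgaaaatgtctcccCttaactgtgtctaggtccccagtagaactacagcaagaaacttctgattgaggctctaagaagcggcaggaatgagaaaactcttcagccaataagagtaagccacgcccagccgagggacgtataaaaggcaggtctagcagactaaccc
FRG2 and FRG2B were identical at 249 of the 249 bases that their windows share, the windows being set off by 1 base, so a short read from here could be placed at either end. FRG2C was identical to FRG2 at 242 of 250 bases (96.8%). The DUX4 window was GC-rich (72.8%, with 20 CpG dinucleotides) and that of FRG2 was not (48.4%, with 7), against a median of 58.0% and 11 over 35116 promoter windows of that length. The telomere repeat unit TTAGGG, searched on both strands, was in none of the 4 windows of DUX4, FRG1, FRG2 and FRG2B and in 7.94% of all windows, which says only that these letters are not in these windows. No peak lay over any of these 4 windows. The letters under the peaks themselves were not analysed here.

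DUX4 itself carried 6 peaks, all with a deep pileup, a high background and a low fold, and none near its start. The gene spans 12.1 kb on chromosome 4 (190173774 to 190185911, plus strand) in the RefSeq table, which holds gene spans without exons. All 6 summits lay 4.22 to 7.32 kb from its start, within a stretch of 3.31 kb that the peaks covered to 33.7%. The annotated DUX4L copies are far shorter (at 10q at most 1.525 kb). These 6 summits thus count as inside DUX4 through its long span and lie further from its start than a DUX4L copy is long. The first, from 190177903 to 190178005, had 76 reads over a background of 46.8 (fold 1.61, −log10 q 1.28). The second, from 190178350 to 190178475, had 128 reads over 60.4 (fold 2.102, −log10 q 9.85). The third, from 190178782 to 190178858, had the highest fold of the 6, with 117 reads over 41.7 (fold 2.76, −log10 q 17.0). These 3 lay at near-even steps, within 1 kb. The fourth, from 190179271 to 190179397, had 89 reads over 40.6 (fold 2.16, −log10 q 6.88). The fifth, from 190179474 to 190179956, was the widest at 483 bp and the deepest at 134 reads over 72.2 (fold 1.84, −log10 q 6.68). The sixth stood apart by 1426 bp, from 190181012 to 190181210, with 92 reads over 57.0 (fold 1.60, −log10 q 1.79). In the whole list 0.532% of peaks had a fold under 2, and 3 of these 6 did. Their backgrounds were above those of 99.2% or more of the list and their folds above those of 5.82% or fewer. The largest pileup in the whole list was 138 reads, against 134 at the deepest of the 6.

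No summit lay in the repeat units annotated on the centromere side of DUX4. The RefSeq table lists 8 DUX4L copies from DUX4L8 to DUX4L2 (190067935 to 190092289), whose starts are 3293 to 3300 bp apart, the length of a D4Z4 unit. Neither these 24.4 kb nor DUX4L9, the single copy beside FRG2, held a summit. DBET, the long noncoding RNA at the proximal edge of the array that is known from the activation of DUX4, had none either, in the gene or within 3 kb. Between DUX4L2 and DUX4 there were 3 peaks. Those from 190104578 to 190104745 (8 reads, fold 4.39) and from 190110971 to 190111048 (9 reads, fold 4.70) were shallow and lay 537 bp before and inside the noncoding gene LOC107986338. The other, from 190122426 to 190123110, was a 685 bp peak with 89 reads over a background of 16.9 (fold 5.02, −log10 q 30.03). It was 10.1 kb from the nearest annotated gene, with DUX4 50.9 kb further on. Between this peak and DUX4 no gene and no peak is listed. Whether that stretch is assembled sequence was not analysed here, and the density of the span below counts it in full. Over the whole span from the first to the last DUX4 or DUX4L gene of 4q (190021169 to 190185911), there were 9 summits, 5.46 per 100 kb (exact Poisson interval 2.50 to 10.4). That span starts at DUX4L9 and so takes in FRG2 and the pseudogenes beside it, and none of its 9 summits lay in a DUX4L copy.

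**Figure D1:**
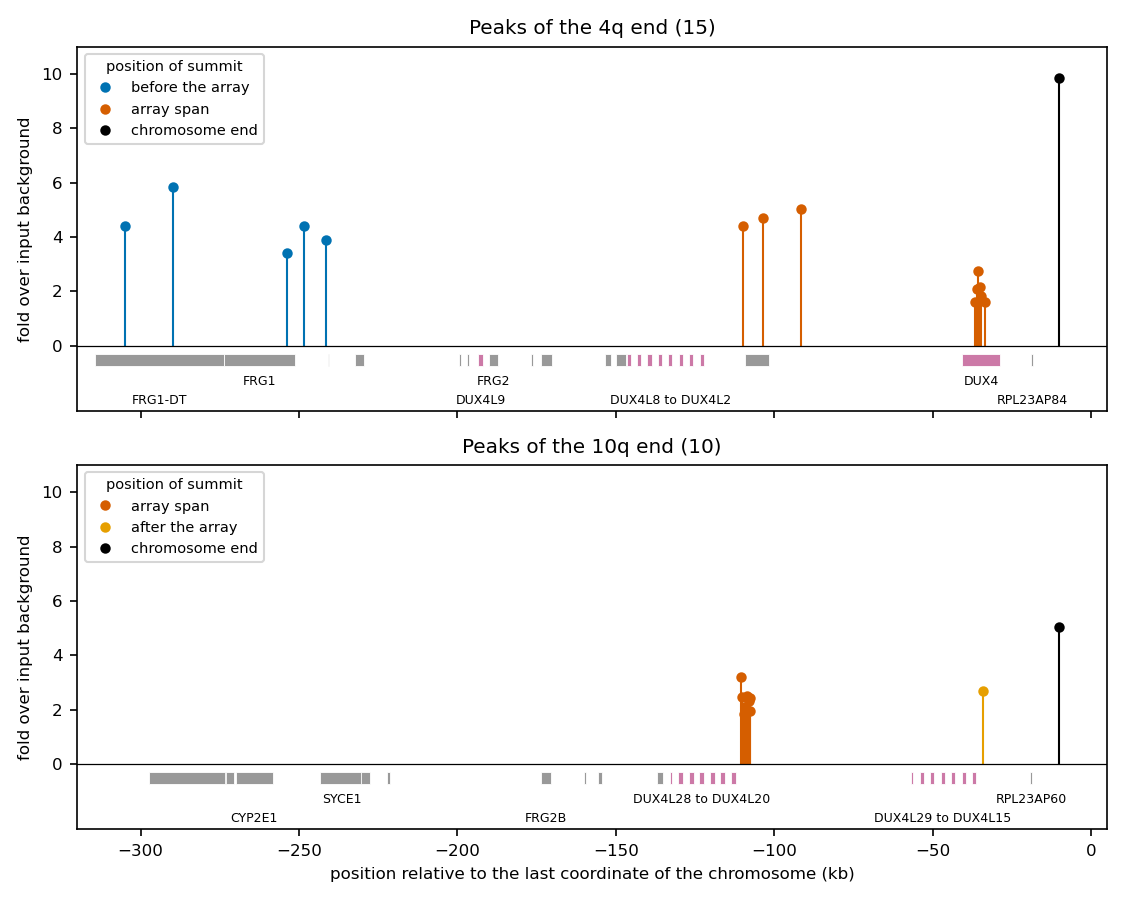
Fold over the input background (linear axis, from 0) of each TRF2 peak at the 4q end (upper panel, 15 peaks) and the 10q end (lower panel, 10 peaks), against its distance in kb from the last coordinate of the chromosome; points and lines are single peaks, coloured by position, and boxes are RefSeq genes, with DUX4 and DUX4L genes in pink. The 4q end has 5 peaks on its FRG1 side and the 10q end has none there, whereas both ends have a dense group of low peaks at the array and a peak 10.0 kb from the chromosome end.

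The FRG1 side of the 4q window carried 5 shallow peaks. FRG1 (189940872 to 189963192, plus strand, 22.3 kb) had 1 summit inside the gene, from 189960649 to 189960717, with 6 reads (exact Poisson interval 2.20 to 13.1) over the minimum background, a fold of 3.41 and a −log10 q of 0.811. A second summit lay 2.79 kb past its end, from 189965965 to 189966033, with 8 reads (fold 4.39, −log10 q 2.33). Neither reached a −log10 q of 5, the level called strong here. The peak nearest to the FRG1 start was 16.2 kb before it, from 189924588 to 189924664, inside the divergent noncoding transcript FRG1-DT, and had 11 reads (fold 5.85, −log10 q 5.09). It was the only strong peak of the 5. Another in FRG1-DT, from 189909565 to 189909643, had 8 reads (fold 4.39), and the last, from 189973096 to 189973164, had 7 reads (fold 3.90) and lay 478 bp before the pseudogene MLLT10P2. All 5 had an input background at the minimum of the list, as had 29.5% of all peaks, and their pileups of 6 to 11 reads overlapped within counting error.

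FRG2 and FRG2B had no peak. FRG2 (190024367 to 190027256, minus strand) was 51.2 kb from the nearest summit, the one beside MLLT10P2. FRG2B (133623895 to 133626795 on chromosome 10, minus strand) was 60.2 kb from the nearest summit, the first of the group past DUX4L20. Next to FRG2 and FRG2B, on the side of the repeat blocks, 3 pseudogenes stand in the same order at both ends. RARRES2P4, AGGF1P1 and CLUHP4 start 13.4, 16.6 and 36.7 kb from the FRG2 coordinate start at 4q, and RARRES2P2, AGGF1P2 and CLUHP5 start 13.4, 18.0 and 36.4 kb from that of FRG2B at 10q. This shared stretch of 38.6 kb at 4q and 38.3 kb at 10q held 0 summits at either end. Of the 4 named genes, 2 thus had a summit in the gene or within 3 kb, DUX4 and FRG1, and only DUX4 had a strong one; in the gene table as a whole, 4.74% of 19866 protein-coding genes and 3.09% of all 58961 had such a summit.

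At 10q, 8 of the 10 peaks formed 1 dense group just past a block of repeat units. The block runs from DUX4L25 to DUX4L20 (133667151 to 133685192), 6 copies with starts 3299 to 3310 bp apart, and held no summit itself. The 8 summits lay 1.78 to 4.60 kb past the end of DUX4L20, in 2.96 kb. The first, from 133686923 to 133687013, had 78 reads over a background of 23.7 and the highest fold of the group (3.20, −log10 q 14.2). The second, from 133687168 to 133687241, had 67 reads over 26.5 (fold 2.47, −log10 q 7.00). The third, from 133687805 to 133687918, had 84 reads over 45.7 (fold 1.82, −log10 q 3.32) and was the only one of the 8 under a −log10 q of 5. The background thus rose along the first 3 peaks and was 43.4 or more at all later ones. The fourth, from 133688236 to 133688359, had 127 reads over 60.4 (fold 2.09, −log10 q 9.53). The fifth, from 133688667 to 133688739, had 110 reads over 43.4 (fold 2.50, −log10 q 12.9). The sixth, from 133689362 to 133689467, had 130 reads over 55.8 (fold 2.305, −log10 q 12.9). The last 2 followed closely, from 133689573 to 133689656 with 131 reads over 53.6 (fold 2.42, −log10 q 14.6), and from 133689732 to 133689881 with 107 reads over 54.2 (fold 1.96, −log10 q 6.27). Beyond them the table lists no gene and the peak list no peak for 50.7 kb, up to DUX4L29; whether that stretch is assembled sequence was not analysed here.

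The second block of repeat units at 10q, from DUX4L10 to DUX4L15 (133743330 to 133761135), again had no summit inside and 1 just past it. This peak, from 133763124 to 133763192, lay 2.02 kb past the end of DUX4L15 and had 67 reads over a background of 24.3 (fold 2.69, −log10 q 8.57). Measured from RPL23AP60, a ribosomal protein pseudogene between the array and the end of 10q, the peak lay 15.1 kb before it. The 6 peaks in DUX4 lay 14.6 to 17.7 kb before RPL23AP84, the 4q copy of that pseudogene. Over the span from the first to the last DUX4L gene (133664429 to 133761135) 10q held 8 summits, 8.27 per 100 kb (exact Poisson interval 3.57 to 16.3), none of them in a DUX4L copy. This span starts past FRG2B and is 96.7 kb long, against 165 kb for the 4q span that includes FRG2, so the densities do not share a denominator and were not compared.

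The dense groups of the 2 ends were alike in depth, but in spacing only over 3 neighbouring peaks of each. Beyond those peaks the spacing differed. The largest gap between neighbouring summits was 1426 bp in the 4q group and 718 bp in the 10q group. When the 10q group was slid along the 4q group, the shift at which most peaks overlapped paired 6 of the 8 peaks at 10q with 4 of the 6 at 4q; the shift was picked from these positions, so the match is a description. At that shift the second 4q peak and the fourth 10q peak coincided at the summit. Ties between shifts were settled by the smallest summed distance between summits. That choice tends to make a pair coincide, so the coincidence itself is no result. They were 126 and 124 bp wide and had 128 reads (exact Poisson interval 107 to 152) and 127 reads (106 to 151), each over a background of 60.4. The peaks before them were 21 bp apart at the summit, with 76 reads (59.9 to 95.1) at 4q and 84 reads (67.0 to 104) at 10q. Those after them were 11 bp apart, with 117 reads (96.8 to 140) at 4q and 110 reads (90.4 to 132.6) at 10q. In each of these 3 pairs the pileups differed by less than their counting error. The largest pileup in the whole list was 138 reads, so the 2 deeper pairs lay near the top of its range, with little room to differ upward. The handling of duplicate reads, which can cap a pileup, was not given, and its part in this likeness was not tested. The 483 bp peak of 4q overlapped the last 3 peaks of 10q, with summit differences of 149, −49 and −223 bp. The first 2 peaks of 10q, and the fourth and sixth of 4q, had no counterpart. Whether reads from one end were counted at the other was not tested.

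**Figure D2:**
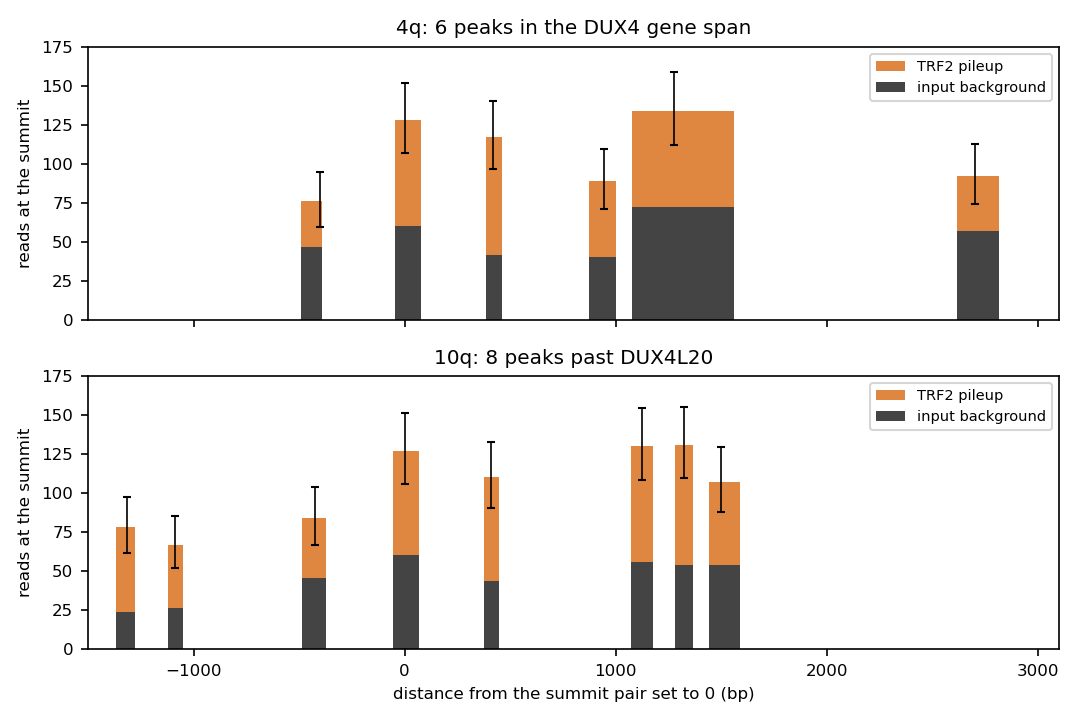
Reads at the summit of the 6 peaks in the DUX4 gene span at 4q (upper panel) and of the 8 peaks past DUX4L20 at 10q (lower panel), against distance in bp after the 10q group was shifted onto the 4q group, with 0 at the summit pair that coincides. Orange bars start at 0 and reach the TRF2 pileup, and dark bars drawn in front of them reach the input background, an expected value. Bar width is peak width and whiskers are exact Poisson 95% intervals of the pileup. The pair at 0, whose coincidence the choice of shift favours, and its neighbours on both sides match in position and height. The other peaks do not pair this closely.

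As groups, the 6 peaks in DUX4 had a median fold of 1.97 (1.60 to 2.76) and the 8 past DUX4L20 a median of 2.36 (1.82 to 3.20), with ranges that overlap. Their median pileups were 104.5 and 108.5 reads and their median backgrounds 51.9 and 49.6. Among the other 11 peaks of the 2 ends the fold had a median of 4.39 and the pileup one of 9 reads. A q-value under 0.05 was reached by 13 of 15 peaks at 4q and 10 of 10 at 10q, against 79.3% of the whole list. Strong peaks were 7 of 15 at 4q and 9 of 10 at 10q, against 30.0% of the list. A fold of 5 or more was reached by 3 peaks at 4q and 1 at 10q, against 25.2% of the list, and none of these was in the dense groups. The 10q end had no peak at the minimum background and 4q had 6, all shallow. Peak density was 47.7 per Mb at 4q (exact Poisson interval 26.7 to 78.7) and 33.6 per Mb at 10q (16.1 to 61.8). These intervals treat peaks as independent, although 8 of the 10 at 10q lay in 2.96 kb. The nearest peaks outside the windows were far away. At 4q the last one before the window lay 1.71 Mb from the chromosome end (fold 3.90, 7 reads), and the first one inside had a fold of 4.39. At 10q the last one lay 4.51 Mb from the end (fold 3.90, 7 reads), and the first one inside was the first of the dense group, with a fold of 3.20.

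The outermost peak of each end differed in fold more than in pileup. At 4q it ran from 190204466 to 190204587, with its summit 10.0 kb from the last coordinate, and had 59 reads (exact Poisson interval 44.9 to 76.1) over a background of 5.08, a fold of 9.87 and a −log10 q of 36.7. This was the highest fold of the 25 peaks. At 10q it ran from 133787108 to 133787438, also 10.0 kb from the last coordinate, and had 75 reads (59.0 to 94.0) over a background of 14.1, a fold of 5.03 and a −log10 q of 25.3. The pileup intervals overlapped, while the background at 10q was the higher. Whether these cells carry more copies of one end than of the other was not analysed here. Among the 24 chromosome ends with a peak within 20 kb of the last coordinate, 4q ranked 7 by fold and 10q ranked 24, the lowest. By background, 10q ranked 5 and 4q ranked 20. RPL23AP84 and RPL23AP60 were the nearest annotated genes, 8.29 and 8.62 kb away.

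How the 2 ends rank among the chromosome ends depended on the window. In windows of 315 kb, 4q had 15 summits and 10q had 10, the 2 highest of 48 ends; the other 46 had a median of 1 and at most 9, and 14 of them had none. In the last 1 Mb, 4q still had 15 and ranked 3, and 10q still had 10 and shared rank 5 with 3q. There Yq had 61 summits, 1p had 20 and 18p had 11. Counting strong peaks in the 315 kb windows, 10q ranked 1 with 9, 18p ranked 2 with 8 and 4q ranked 3 with 7. These ranks follow from how the ends were chosen. Once peaks within 1 kb were merged in these windows, 4q still ranked 1 with 11 loci, whereas 10q fell to 3 loci and ranked 7. The end of 18p was the most like them. Its 9 peaks lay in 3 loci, with a median pileup of 110 reads over a median background of 48.5, and 3 of them had a fold under 2. No other end outside 4q and 10q had a peak of such low fold in this window. Unknown bases of the assembly were not analysed here, so a count of 0 at an end is no measure of binding.

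**Figure D3:**
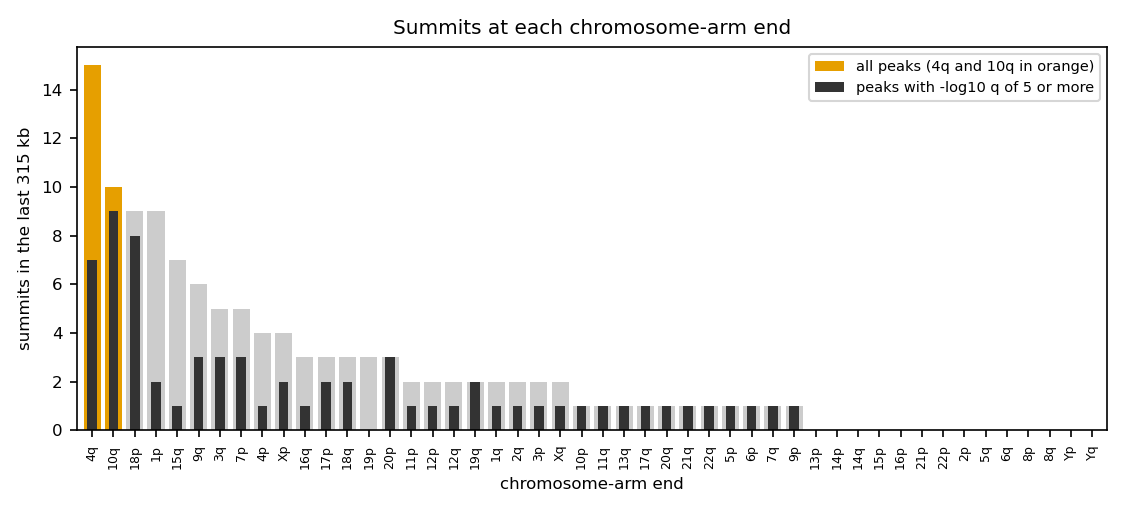
Number of TRF2 summits in the last 315 kb of each of the 48 chromosome-arm ends, in order of the count; wide bars are all peaks, with 4q and 10q in orange, and narrow dark bars are the strong peaks (−log10 q at least 5). The 4q end has the most peaks (15) and the 10q end the most strong peaks (9), with 18p next (8).

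Copies of these genes elsewhere in the genome had peaks by family. Every one of the 11 annotated genes whose symbol starts with FRG1 had a summit in the gene or within 3 kb: FRG1, FRG1-DT and 9 pseudogenes on chromosomes 9, 20 and 22. In the table as a whole 1.49% of pseudogenes had one. The FRG1 genes are long (median 22.0 kb) and 6 of the 11 are centromeric, in the band or less than 2 Mb from it; the part of length and position in this count was not tested. The 41 peaks at the 9 pseudogenes were shallow like those at FRG1, with a median of 8 reads and a median fold of 3.99, and 26 of them were at the minimum background. The highest folds were in FRG1DP on chromosome 20 (6.34, from 29095314 to 29095433) and at 2 peaks of FRG1BP (5.85 each, starting at 30390886 and 30391984), followed by 5.45 in FRG1DP and 5.32 beside FRG1JP on chromosome 9.

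Of the 13 FRG2 genes none had a summit, although 8 of them are centromeric by the same measure. They are short (median 2.85 kb), and a count of 0 over their 119.6 kb, flanks of 3 kb included, allows up to 2.51 summits per 100 kb, against 9.38 at the FRG1 genes and 0.721 over the primary chromosomes. Among DUX4 and DUX4L copies, 1 of 10 at 4q, 2 of 14 at 10q (DUX4L15 and DUX4L20) and 5 of 28 elsewhere had a summit in the gene or within 3 kb, against 1.49% of all pseudogenes and 3.09% of all genes. At 10q all of these summits lay past the genes and none inside, and at the Y copies all but 1 of the 11 lay outside. Those elsewhere were DUX4L16, DUX4L17, DUX4L18 and DUX4L19 on chromosome Y and DUX4L50 on chromosome 9. Of the 28 copies elsewhere, 20 are centromeric, and the part of position in their count was not tested. The 11 peaks at the Y copies resembled the dense groups, with a median of 84 reads (40 to 127) over a median background of 34.4 (9.59 to 63.2) and a median fold of 2.14. The highest fold at each copy was 3.87 at DUX4L16, 3.39 at DUX4L17, 3.01 at DUX4L18 and 2.84 at DUX4L19. Of 14 other double homeobox genes 3 had a summit in the gene or within 3 kb, against the same background. They were the pseudogenes DUXAP8 (highest fold 5.37), DUXAP9 (4.88) and DUXAP10 (6.83), the longest genes of this list. Its lengths run up to 45.1 kb with a median of 1.33 kb, and 4 of the 14 are centromeric. The part of length and position was not tested. DUXA, a homeobox gene of the early embryo, and DUXAP1 had none.

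The genes that act on the array or downstream of it had no peaks. None of 20 regulators of D4Z4 chromatin, such as CBX3, a heterochromatin protein that binds methylated histone H3, and CHD4, the remodelling enzyme of the NuRD complex, had a summit in the gene or within 3 kb. The same held for 25 genes that DUX4 is known to induce, CCNA1, a cyclin of the germ line, and CSAG3 among them. In the wider neighbourhood of 4q35, 1 of 17 genes had one, FRG1, while CYP4V2, a cytochrome P450 gene of fatty acid metabolism, and DBET had none. At 10q26.3 none of 18 had one, including ADAM8, a membrane metalloprotease gene, and CALY. By the share of genes with a summit (3.09% of all, 4.74% of protein-coding), lists of this size are too short to show fewer than that background. By length, a count of 0 allows up to 0.273 summits per 100 kb at the D4Z4 regulators. It allows 0.683 at the genes induced by DUX4 and 0.836 at 10q26.3, against 0.721 over the primary chromosomes. The part of position along the chromosomes in these limits was not tested.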

How the data were processed

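The deposited file was the list of peaks of 1 TRF2 library over 1 input library from HCT116 cells, on hg38. Per the submitters' processing notes, the tools were MACS2 2.1.0, Bowtie2 2.3.2, ChIPseeker 1.36.0 and HOMER; settings, and the handling of duplicate and multiply placed reads, were not given in the sources used here. One doubt is that the list's name mentions a control siRNA and the labels no transfection, so this is not settled. Per the file's format, the authors deposited for each peak a fold, which is a ratio of pileup to input background at the summit, a −log10 p-value, a −log10 q-value, a summit position and a score; in 100% of peaks the score was 10 times −log10 p without its decimals.

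The pileup was recovered as the whole number that fits both values, with fold as pileup plus 1 over background plus 1 and p as the upper Poisson tail. It matched within 0.001 on −log10 p in 100% of 24258 peaks, and the recovery was tested on simulated data. Depth per library was not given in the sources used here. Gene spans were those of RefSeq on GRCh38.p14 (58961 genes, after 718 entries on other sequences were left out), chromosome lengths came from GenomeInfoDb 1.38.1 and bands from circlize 0.4.16 (R 4.3.3). Other steps used Python 3.11.15, scipy 1.17.1, pandas 2.3.3 and Biopython 1.88. Coordinates are 1-based. Peaks were placed by their summits, and "near" means within 3 kb.

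The windows, genes and lists were chosen with earlier results of these data known. The rule for named items took the 4 named genes, all peaks of both windows, the genes there with a summit in the gene or within 3 kb, the first genes of each list by alphabet (at most 4 of those with a summit and 2 of those without) and the 5 peaks of highest fold at family copies elsewhere. DUX4L50, DUX4L9, FRG2C, the pairing of peaks between the ends, the end of 18p and the summary of the Y copies fall outside it and were chosen after their values were seen. Alternatives were stricter peak thresholds, other windows and distances, overlap in place of summits, and merging of peaks within 1 kb.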

Additional observations from a re-analysis of the deposited data

How the results depend on the processing

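Of 86 alternative values, 60 kept within 1.5 times of the reported count or within its error and 26 moved. Some of the 60 could not have moved, because a list with a count of 0 stays at 0 under any stricter threshold. Small counts have wide errors, so a fall from 15 to 11 on merging at 4q counted as kept. The 60 is therefore no measure of robustness. Requiring a −log10 q of at least 5 left 7 summits at the 4q end (7 also in the window of equal length), 5 in the span of its DUX4 and DUX4L genes, 1 of the 4 named genes, 1 other double homeobox gene, 3 FRG1 genes and 0 genes of the 4q35 neighbourhood. Keeping only peaks with a fold of 5 or more left 3 summits at 4q (median fold 5.85) and 1 at 10q (fold 5.03), 1 in that span at 4q and 0 in that of 10q, 0 of the named genes, 4 FRG1 genes, and 0 DUX4 or DUX4L copies at 4q, at 10q and elsewhere, as well as 0 genes of 4q35. Merging peaks within 1 kb left 3 loci at 10q, and 3 in the window of equal length, an alternative for the chromosome ends that was chosen after seeing the data. Counting only summits inside an annotated copy left 0 at 10q, where the annotated copies are far shorter than the DUX4 span of 4q. Within 10 kb in place of 3 kb, 6 DUX4L copies at 10q, 13 elsewhere, 1 gene induced by DUX4 and 2 genes of 4q35 had a summit. The causes of these shifts were not tested. The order of the ends thus depends on the threshold: all peaks put 4q ahead, and strong peaks put 10q ahead.

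No paired analysis was possible because there was 1 library per group. Pileups of 6 to 11 reads on the FRG1 side give wide counting intervals.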
